A study of Mus musculus with 8 samples.

Results

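The 7 genes that encode the subunits of AMP-activated protein kinase (AMPK) and 2 genes of its upstream kinases were followed in tibialis anterior muscle. The muscle came from mice with and without a muscle knockout of Carm1. These 9 genes, chosen by name, were all listed among the 24341 genes of each table. RNA came from the tibialis anterior, the shin muscle, which consists mostly of fast fibres, of 8 chow-fed mice aged 12 weeks and labelled as male. Each library comes from a different animal. The 4 knockout animals (Carm1 skm-/-) carried floxed Carm1 and 1 copy of the HSAcre transgene (Tg/0), in which the human skeletal actin promoter drives Cre in muscle fibres. The 4 control animals (Carm1 skm+/+) carried floxed Carm1 and no HSAcre (0/0). All 8 animals thus share the floxed allele, Cre is present in every knockout and in no control, and cells other than muscle fibres keep Carm1. The comparison asks how RNA levels differ when the gene of this arginine methyltransferase is targeted in muscle fibres.

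AMPK is a complex of a catalytic alpha subunit, a scaffolding beta subunit that also binds glycogen, and a gamma subunit that binds AMP, ADP and ATP. It is switched on when cellular energy falls, and in muscle it promotes glucose uptake and fatty acid oxidation and restrains anabolic pathways. Each subunit has alternative genes. Prkaa2, Prkab2 and Prkag3 encode the forms most closely tied to skeletal muscle, and the complex of these 3 subunits is found mainly in fast glycolytic fibres. Stk11 encodes LKB1, the main kinase that activates AMPK in contracting muscle, and Camkk2 encodes a kinase that activates AMPK in response to calcium.

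Values are FPKM, a length-corrected level (fragments per kilobase of transcript, relative to library size). Comparisons use FPKM divided by a scaling factor for each library (scaled FPKM), and a difference is knockout minus control on the log2(scaled FPKM + 1) scale, which understates changes of low genes. A gene was called when its adjusted p from limma over the 11096 genes tested lay under 0.05. The tables hold no read numbers; FPKM summed to 604428 at least and 681042 at most, and the shallowest library had an estimated 81.0% of the depth of the deepest. Carm1 itself was lower in the knockout libraries, at 18.4, 13.5, 16.5 and 14.7 FPKM, than in the control libraries, at 26.5, 36.0, 24.7 and 31.0 FPKM (2-sided exact permutation p = 0.0286, the smallest that 4 against 4 can give). Its mean after scaling was 50.6% of the control mean. How complete the loss in muscle fibres was cannot be told from RNA of the whole muscle. The 4 fast-fibre markers with a valid estimate in all libraries (Mylpf, Tnni2, Pvalb and Des) summed to between 38639 and 90122 scaled FPKM, while the 3 satellite cell markers summed to between 1.26 and 2.15.

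Libraries that stand apart bear on several of these genes. Xist, the RNA of the inactive X chromosome in females, reached 19.6 FPKM in control 1, 22.9 FPKM in knockout 2 and 20.5 FPKM in knockout 4 but no more than 0.0662 FPKM in the remaining 5, although all animals are labelled male. The Y-linked gene Eif2s3y was at no more than 0.112 FPKM in the same 3 libraries and between 42.3 and 58.1 FPKM in the others, and Ddx3y, Uty and Kdm5d were likewise near or at 0 in those 3, so that their sex-linked RNA goes against the label. Myh2, the type IIa myosin heavy chain, was high in the same 3 (764, 1540 and 1535 FPKM) and at 122 to 167 FPKM elsewhere. Myh1, another fast myosin heavy chain, was at 0 FPKM in control 1 and between 1499 and 2266 FPKM in the other libraries. Whether the Myh1 and Myh2 values reflect the fibres or the estimation was not tested. Knockout 2 and knockout 4 further differ from the rest in their tables, being alone in giving Myh4 a value and in marking no gene as low in data. Genotype differences are therefore also given from a model with an Xist term (Xist present or absent, called the Xist covariate), for the 5 libraries lacking Xist, and with knockout 2 and knockout 4 left out.

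By level, the 9 genes fell into a high and a low set. In controls the order was Prkab2, Stk11, Prkag3, Prkag1, Prkaa2, Prkab1, Prkag2, Prkaa1 and Camkk2. Mean levels ran from 65.8 ± 6.23 scaled FPKM for Prkab2 to 0.919 ± 0.193 for Camkk2 (SD, n = 4). The ranges of Stk11, Prkag3 and Prkag1 overlapped in that order, as did those of Prkab1 and Prkag2, and the other neighbours in the order did not overlap. In knockouts Prkag1 stood highest, at 51.7 ± 1.86 scaled FPKM, followed by Stk11, Prkag3 and Prkab2 (SD, n = 4), and the ranges of these 4 genes overlapped from each to the next. Prkab2, highest of the 9 in controls, thus came after 3 other members in knockouts. FPKM are per transcript length, so these levels can be set side by side, but they are RNA levels and not amounts of subunit.

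**Figure D1:**
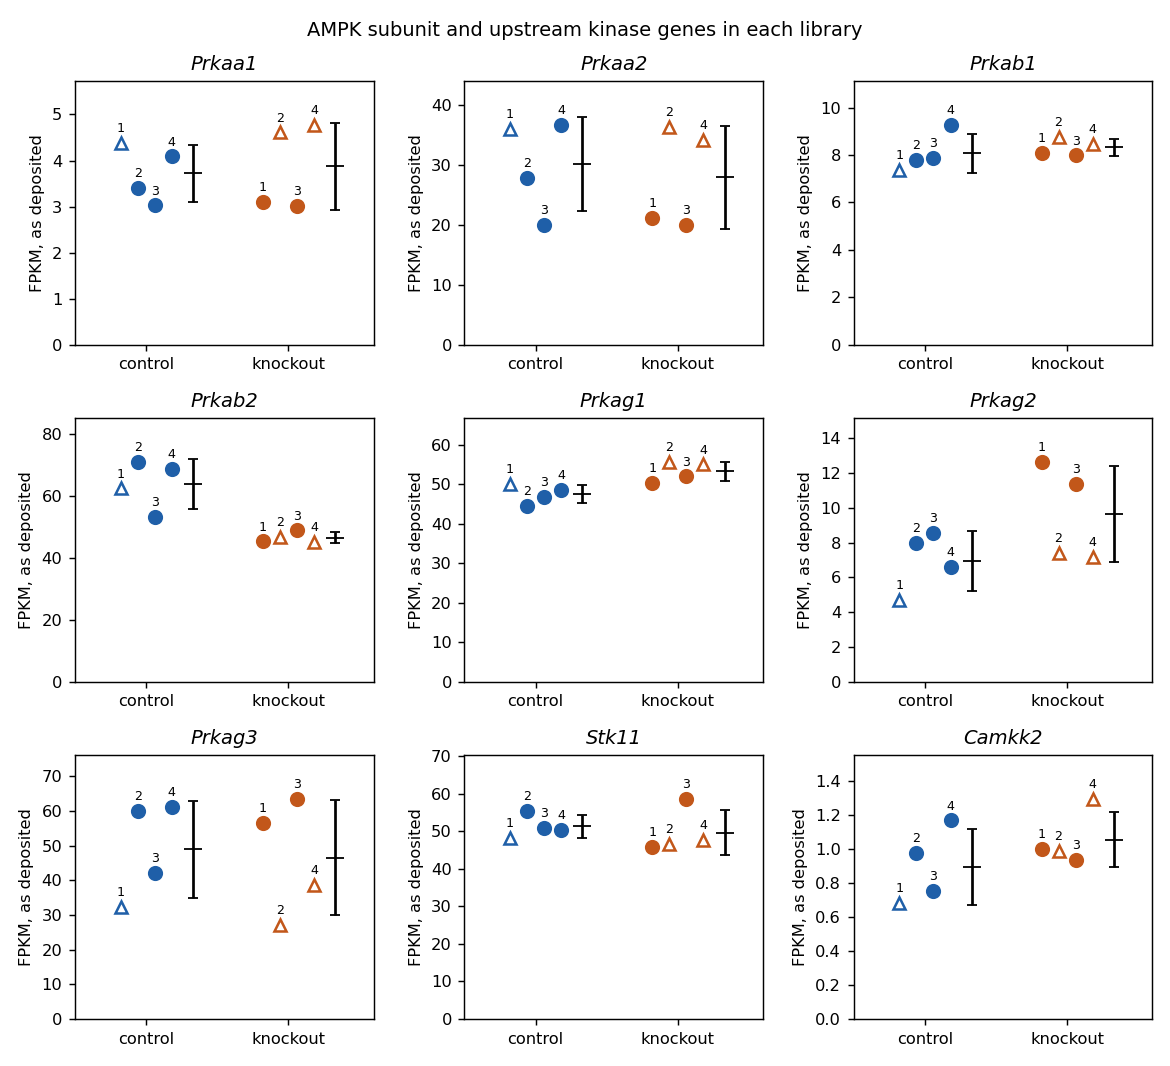
FPKM as deposited (y axis, from 0) of each member in the 4 control (blue) and 4 knockout (orange) libraries, numbered by replicate; open triangles are the 3 libraries with Xist, and bars give the mean and SD of each group. The Prkab2 groups do not overlap, those of Prkag1 are apart by a narrow gap (49.99 against 50.4 FPKM) that scaling closes, and Prkag3 is lowest in the 3 libraries with Xist.

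The beta subunit genes showed the clearest difference: all 4 knockouts lay below all 4 controls for Prkab2, and not for Prkab1. Prkab2 encodes the beta2 scaffold and lies at chr3:97658193-97673812 (mm10, plus strand). Control libraries stood at 62.5, 71.0, 53.2 and 68.8 FPKM and knockout libraries at 45.4, 46.9, 48.9 and 45.1 FPKM. The groups did not overlap, with the smallest gap between control 3 and knockout 3. After scaling, the mean was 65.8 ± 6.23 in controls and 45.3 ± 3.69 in knockouts (SD, n = 4), or 68.9% of the control mean. The difference was -0.53 (SE 0.09, 95% interval -0.74 to -0.31), with an adjusted p of 0.0592 in limma, which misses the threshold.

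Whether Prkab2 is called depends on the fit. With presence of Xist as a covariate the difference was -0.50 (SE 0.09) and the adjusted p 0.0377, and with library weights it was -0.59 and 0.0310, so that Prkab2 fell by these tests. In the other 19 alternatives its adjusted p lay above the threshold, at up to 0.278 in the 5 libraries without Xist, where the difference was -0.47. The difference stayed between -0.59 and -0.44 in all 21 alternatives. Removing the trends of each library on GC content, transcript length and level left it at -0.50.

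Prkab1, which encodes the beta1 scaffold at chr5:116013586-116024508 (minus strand), was close to level across all 8 animals. It stood at 7.37, 7.80, 7.86 and 9.27 FPKM in controls and at 8.08, 8.76, 7.98 and 8.47 FPKM in knockouts. The groups overlapped, and the highest and lowest scaled values differed by 1.19-fold. The difference was -0.04 with a 95% interval of -0.20 to 0.13 and turned to 0.04 without scaling.

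The promoters of both beta genes are shown because the pair parted in this comparison, from 250 bases before to 50 after the start site (RefSeq, GRCm38.p6, the assembly of mm10, 5′ to 3′). Capitals mark GC boxes, GGGCGG or its complement CCGCCC, and E-boxes, CANNTG, the motif form bound by myogenic factors. The windows are chr5:116024379-116024678 on the minus strand for Prkab1 and chr3:97657962-97658261 on the plus strand for Prkab2.
Prkab1: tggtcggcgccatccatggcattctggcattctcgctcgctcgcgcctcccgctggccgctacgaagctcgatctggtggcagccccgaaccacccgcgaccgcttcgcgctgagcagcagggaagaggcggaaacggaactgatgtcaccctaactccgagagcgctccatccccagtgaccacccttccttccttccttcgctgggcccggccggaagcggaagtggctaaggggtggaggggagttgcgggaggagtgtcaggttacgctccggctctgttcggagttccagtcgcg
Prkab2: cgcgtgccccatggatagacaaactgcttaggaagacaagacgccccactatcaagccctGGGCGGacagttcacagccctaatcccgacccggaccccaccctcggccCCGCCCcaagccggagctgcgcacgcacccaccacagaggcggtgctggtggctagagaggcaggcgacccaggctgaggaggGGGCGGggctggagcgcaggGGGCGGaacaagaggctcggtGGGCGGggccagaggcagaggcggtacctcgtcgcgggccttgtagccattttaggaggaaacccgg
The Prkab2 window held 5 GC boxes and no E-box, and the Prkab1 window held neither. Of 32851 promoter windows of the same length, 35.7% held a GC box and 72.3% an E-box on either strand. All 9 members had a promoter entry. The count of Prkab2 is not particular to it, as the Prkaa1 window also held 5 GC boxes and no E-box. That of Prkaa2 held 2 GC boxes and no E-box. These matches are letters in a window, and no binding was measured.

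Since the share of an isoform gene within its class needs no scaling between libraries, shares were also formed from FPKM as deposited. Prkab2 made up 89.4%, 90.1%, 87.1% and 88.1% of the beta FPKM in controls and 84.9%, 84.3%, 86.0% and 84.2% in knockouts. Every knockout lay below every control. The means were 88.7% ± 1.34 and 84.8% ± 0.819 (SD, n = 4), a difference of -3.87 percentage points, with a 2-sided exact permutation p of 0.0286 and an adjusted p of 0.114 over the 4 shares tested. The smallest unadjusted p that 70 assignments allow is 0.0286, so a single share at this p cannot pass after adjustment over 4 shares. Prkab2 was known to be lower when this share was chosen, so the share is the same observation on another scale and not further support. With the replicate number as a block, which the samples do not bear out as a pairing, limma on the log2 ratio of both genes passed the threshold (adjusted p = 0.0279). That is a different test from the permutation, and the ratio was not fitted without the block. The summed FPKM of both beta genes was 71.9 ± 8.33 in controls and 54.9 ± 1.68 in knockouts (SD, n = 4).

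**Figure D2:**
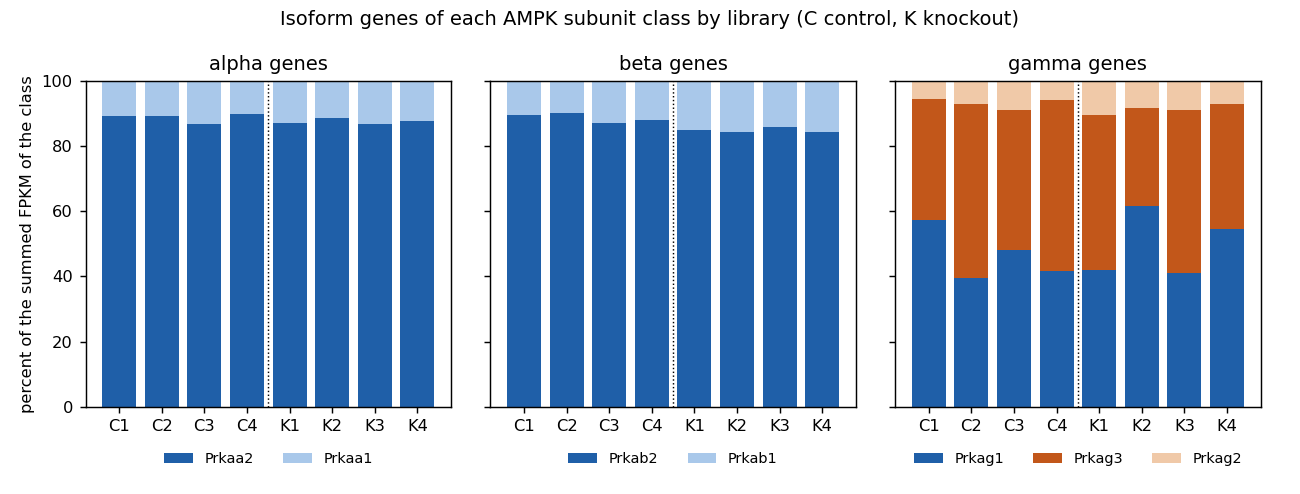
Percent of the summed FPKM of the alpha, beta and gamma genes (y axis, 0 to 100) taken by each isoform gene in the 8 libraries, controls C1 to C4 left of the dotted line and knockouts K1 to K4 right of it. The Prkab2 share is between 87.1% and 90.1% in controls and between 84.2% and 86.0% in knockouts, and the Prkag1 share is highest in C1, K2 and K4.

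The catalytic alpha genes varied between animals of the same genotype and did not differ between genotypes by the test. Prkaa2, the alpha2 gene of muscle at chr4:105029874-105109890 (minus strand), stood at 35.9, 27.8, 20.0 and 36.6 FPKM in controls and 21.1, 36.3, 19.9 and 34.1 FPKM in knockouts. Control 1, control 4, knockout 2 and knockout 4 were high and knockout 1, control 3 and knockout 3 were low, so the groups overlapped throughout. The difference was -0.20 with a 95% interval of -0.69 to 0.28 (adjusted p = 0.743 in limma). The interval leaves room for a fall larger than the value seen for Prkab2. With Xist as a covariate it was -0.33 (adjusted p = 0.257), in the 5 libraries without Xist -0.44 (adjusted p = 0.427), and without knockout 2 and knockout 4 -0.53 (adjusted p = 0.357). It was nearer to 0 with library weights, at -0.10, without scaling, at -0.12, and when control 1 (-0.11), control 4 (-0.13), knockout 1 (-0.09) or knockout 3 (-0.09) was left out. Without control 3, knockout 2 or knockout 4 it was -0.35, -0.33 and -0.30.

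Prkaa1, the more widely expressed alpha1 gene at chr15:5143861-5181899 (plus strand), was far below Prkaa2. It stood at 4.38, 3.40, 3.02 and 4.09 FPKM in controls and at 3.10, 4.61, 3.02 and 4.77 FPKM in knockouts. The same 4 libraries were highest for Prkaa1 as for Prkaa2. The difference was -0.04 (95% interval -0.33 to 0.26), and its sign turned without scaling, at 0.04. As the 2 genes moved together from animal to animal, the Prkaa2 share of the alpha FPKM was steady, at 88.8% ± 1.34 in controls and 87.6% ± 0.827 in knockouts (SD, n = 4; exact permutation p = 0.171, adjusted p = 0.343).

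The gamma genes did not differ between genotypes by the test, and Prkag1 and Prkag3 together made up most of the class in every library. Prkag1, the widely expressed gamma1 gene at chr15:98812797-98831521 (minus strand), had the narrowest spread of the 9, with scaled values 1.16-fold apart from lowest to highest. It stood at 49.99, 44.6, 46.8 and 48.5 FPKM in controls and 50.4, 55.6, 52.0 and 55.0 FPKM in knockouts. As deposited the groups did not overlap, with knockouts higher, but after scaling they did, and the difference was 0.08 with a 95% interval of -0.09 to 0.24 (adjusted p = 0.712 in limma).

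Prkag2, the gamma2 gene, has several start sites across chr5:24862744-25100642 (minus strand), and the listed entry shares its locus with the antisense gene Prkag2os1. Controls stood at 4.68, 7.95, 8.56 and 6.62 FPKM and knockouts at 12.6, 7.42, 11.4 and 7.16 FPKM. Knockout 1 and knockout 3 were above every control, while knockout 2 and knockout 4 lay within the control range. The difference was 0.33 (SE 0.24, 95% interval -0.22 to 0.88, adjusted p = 0.609 in limma). With Xist as a covariate it was 0.51 (SE 0.11, adjusted p = 0.0615), in the 5 libraries without Xist 0.54 (adjusted p = 0.284), and without knockout 2 and knockout 4 it was 0.70 (adjusted p = 0.30). It was smaller, 0.16, with library weights, 0.17 without control 1, 0.20 without knockout 1 and 0.22 without knockout 3, in a range of 0.17 to 0.46 over left-out libraries. None of these passed.

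Prkag3, the gamma3 gene, is expressed almost solely in skeletal muscle, mostly in fast glycolytic fibres, and lies at chr1:74738922-74749221 (minus strand). Its promoter is shown because this gene, beside Prkag2, had the widest spread of the 9, with the marks as above (RefSeq, GRCm38.p6, chr1:74748906-74749205, minus strand).
Prkag3: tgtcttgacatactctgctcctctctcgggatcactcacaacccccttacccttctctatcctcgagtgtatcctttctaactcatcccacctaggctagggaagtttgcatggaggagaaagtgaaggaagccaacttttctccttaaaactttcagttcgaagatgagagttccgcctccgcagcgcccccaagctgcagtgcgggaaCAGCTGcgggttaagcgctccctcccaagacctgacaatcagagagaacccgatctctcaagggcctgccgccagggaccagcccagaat
This window held 1 E-box, CAGCTG, and no GC box.

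Prkag3 stood at 32.4, 60.0, 42.1 and 61.3 FPKM in controls and at 56.6, 27.2, 63.4 and 38.7 FPKM in knockouts. The 3 lowest values were those of control 1, knockout 2 and knockout 4, the libraries with Xist, and the 5 without Xist lay between 42.1 and 63.4 FPKM. Scaled values differed by 2.58-fold between the lowest and the highest library, as they did for Prkag2. The difference between genotypes was -0.19 with a 95% interval of -0.88 to 0.51 (adjusted p = 0.843 in limma). It turned to 0.03 with Xist as a covariate, to 0.12 in the 5 libraries without Xist and to 0.30 without knockout 2 and knockout 4, none of which passed.

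The gamma shares followed the same libraries. Prkag3 made up 37.2%, 53.3%, 43.2% and 52.7% of the gamma FPKM in controls and 47.3%, 30.1%, 50.04% and 38.4% in knockouts (exact permutation p = 0.429, adjusted p = 0.571). Prkag1 made up 57.4%, 61.6% and 54.5% in control 1, knockout 2 and knockout 4, the libraries with Xist, and between 39.6% and 48.0% elsewhere, with means of 46.7% ± 8.0 and 49.8% ± 9.98 by genotype (SD, n = 4; exact permutation p = 0.714, adjusted p = 0.714). Without knockout 2 and knockout 4 the genotype differences of these shares were 2.08 and -5.11 percentage points, the reverse of the -5.13 and 3.15 over all 8 libraries. Prkag2 took between 5.37% and 10.5%.

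Summed fibre-type markers parted the 3 libraries with Xist, which had the lowest Prkag3, from the other 5. The slow-fibre markers, all 8 with a valid estimate and none at 0, summed to 519, 261 and 280 scaled FPKM in control 1, knockout 2 and knockout 4 and to between 105 and 192 in the other 5. The 4 fast-fibre markers summed to 59817, 38639 and 44575 scaled FPKM in those 3 libraries and to between 62548 and 90122 in the others. Among these others, control 3 had the highest fast-fibre sum and the lowest Prkag3. The slow-fibre sum leans on abundant genes, and Myl3 and Myl2 had the highest control means (89.9 ± 110 and 60.3 ± 62.9 scaled FPKM, SD, n = 4). Single slow markers differed. Myh7 was at 1.85 FPKM or more in the 3 libraries with Xist and at most 0.780 FPKM elsewhere. Tnnt1 was highest in knockout 1, at 57.6 FPKM, and lower in control 1 (15.7 FPKM) than in knockout 3 (16.4 FPKM). By genotype both sums overlapped, although all 4 fast-fibre markers had values below 0 and 6 of the 7 tested slow-fibre markers had values above 0, with 0 called in limma. The fast-fibre median, -0.38, was -0.30 without scaling, -0.22 with the Xist covariate and -0.13 with trends removed. It shrank to -0.07 with cyclic loess normalization and to -0.09 in the 5 libraries without Xist. With quantile normalization it turned to 0.02, and without knockout 2 and knockout 4 also to 0.02. The slow-fibre median of 0.53 lay between 0.43 and 0.61 under the 7 alternatives computed for lists. Their part in the Prkag3 values was not tested, and in bulk tissue fewer fibres of a type and less RNA per fibre cannot be told apart.

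A measure of GC balance in each library moved with Prkaa1 and Prkaa2 and against Prkag2. The balance of low-GC against high-GC transcripts (median deviation of the genes in the lowest quintile of GC content minus that in the highest) was 0.15, 0.06, 0.23 and 0.10 on the log2 scale in control 1, control 4, knockout 2 and knockout 4. In the other 4 libraries it lay between -0.15 and -0.10. The 4 libraries with a positive balance were the 4 with the highest Prkaa1 and Prkaa2 and the 4 with the lowest scaled Prkag2. They include the 3 libraries with Xist, and whether the balance is technical was not tested. Transcripts of Prkaa1 and Prkaa2 are 40.2% and 40.7% GC and that of Prkag2 50.1%. Removing trends on GC content, length and level narrowed the range of Prkaa2 over the 8 libraries from 0.80 to 0.67 on the log2 scale and that of Prkaa1 from 0.44 to 0.32. The range of Prkag2 was 1.21 before and 1.18 after, and that of Prkag3 1.34 and 1.22. Those of Stk11 (0.47 and 0.39) and Prkab1 (0.223 and 0.218) also narrowed. By contrast, the range of Prkag1 widened from 0.21 to 0.34 and that of Prkab2 from 0.79 to 0.80.

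**Figure D3:**
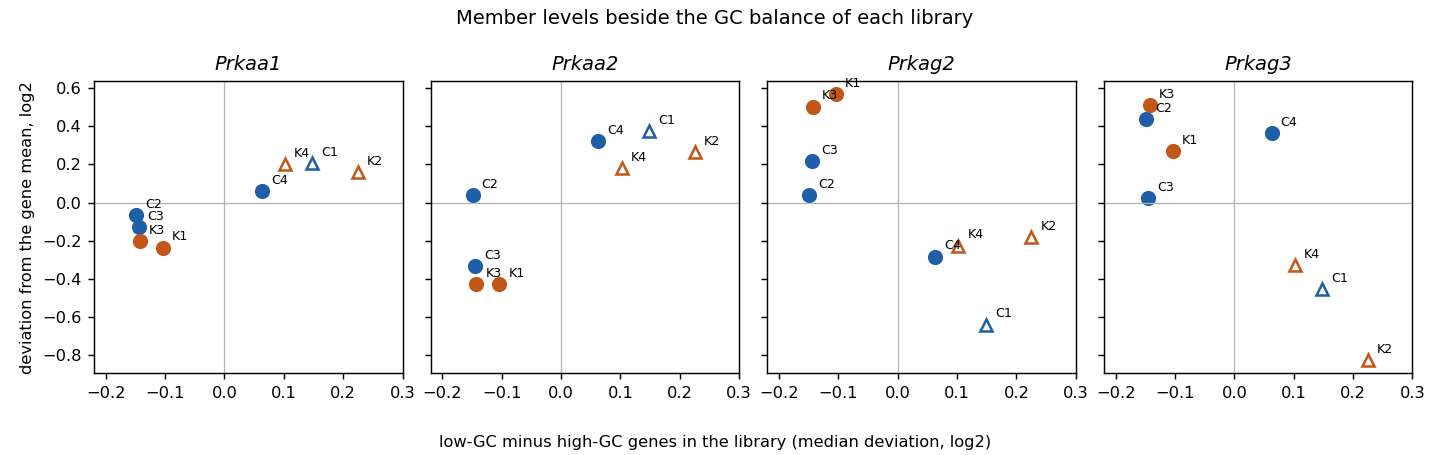
Deviation of 4 members from their mean over the 8 libraries (y axis, log2) against the balance of low-GC over high-GC genes in each library (x axis, log2); blue marks controls (C), orange knockouts (K) and open triangles the libraries with Xist. Prkaa1 and Prkaa2 are above their means in C1, C4, K2 and K4, on the right, where Prkag2 is below its mean.

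The upstream kinases did not differ between genotypes by the test. Stk11 (LKB1) lies at chr10:80115803-80130682 (plus strand). It stood at 48.2, 55.3, 51.0 and 50.4 FPKM in controls and 45.9, 46.6, 58.5 and 47.6 FPKM in knockouts. Knockout 3 was the highest of all 8 and the other knockouts lay below every control. The difference was -0.14 with a 95% interval of -0.41 to 0.14 (adjusted p = 0.683 in limma). The listed entry of Stk11 spans a region shared with 48 other listed genes, so the assignment of reads to it rests on the authors' estimation. Camkk2, at chr5:122731170-122779409 (minus strand), was near the floor of the measurement, between 0.680 and 1.17 FPKM in controls and between 0.937 and 1.29 FPKM in knockouts. It reached 1 scaled FPKM in fewer than 4 libraries and was not tested. Its values overlapped between the groups, and with no filter on low values its difference was 0.08.

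In all, 8 of the 9 members were tested with limma and 0 were called, where 0.36% of all genes tested were called. At an unadjusted p under 0.05 the count was 1 of 8, Prkab2, where 13.1% of all genes lay. The groups did not overlap for 1 of 8, again Prkab2, beside 8.31% of all genes in either direction and 3.64% with the knockout lower. With Xist as a covariate 1 of 8 was called, beside 2.01% of all genes, and with library weights 1 of 8, beside 0.928%. The median difference of the 8 was -0.09, with 6 below 0, beside -0.0021 for all genes. Without scaling it was -0.0077 with 4 of 8 below 0, and it was -0.05 with the Xist covariate and -0.03 without knockout 2 and knockout 4.

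**Figure D4:**
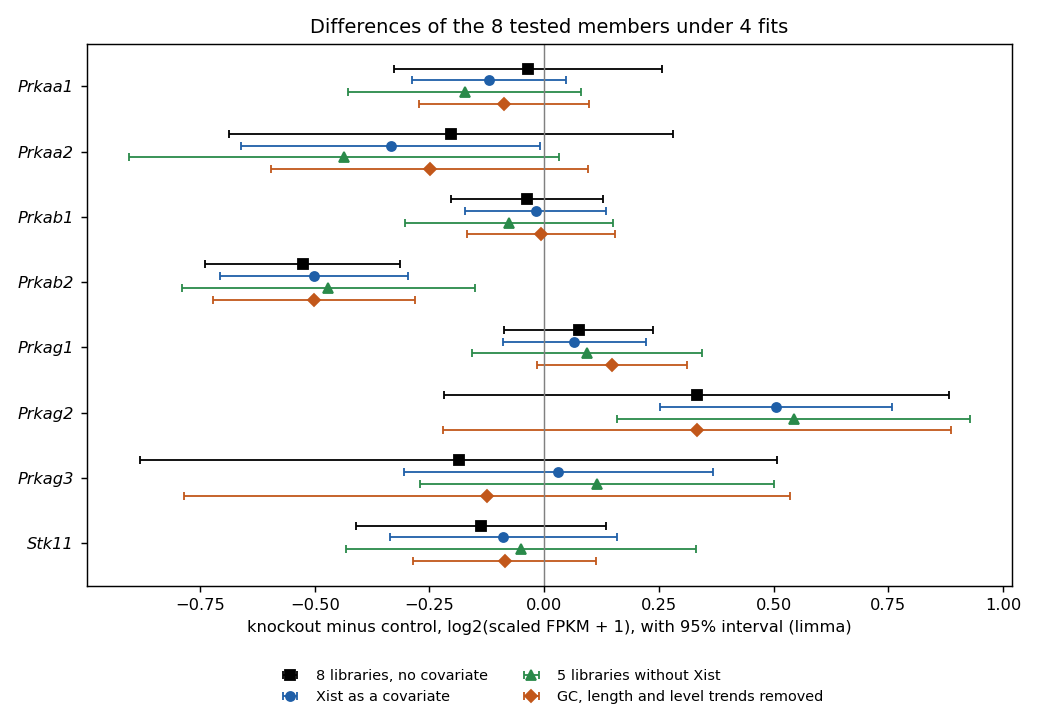
Difference between knockout and control on the log2(scaled FPKM + 1) scale (x axis) with its 95% interval from limma for the 8 tested members, under 4 fits marked by symbol. The Prkab2 intervals lie below 0 in all 4 fits, and the Prkag3 estimate changes sign between them.

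Nearest genes were sought among the tested genes, with members and clone-type names (such as Gm, Rik, Mir, Snor and accession-like names) skipped. Those whose levels followed the 3 muscle forms most closely over the 8 libraries were found by the root mean square distance between log2 values centred on each gene's mean. For Prkab2 these were Jph1, a junctophilin of the triad, at 0.07, Cdkal1, a tRNA-modifying enzyme, at 0.09, and Dnajc4, a DnaJ family member, at 0.09, where the median over all genes was 0.33. For Prkaa2 they were the haem synthesis enzyme Cpox at 0.08, the mitochondrial carrier Slc25a16 at 0.09 and the phosphatase subunit Ppp6c at 0.09 (median 0.36). For Prkag3 the nearest were Rps19-ps3, a ribosomal protein pseudogene whose reads may belong to its parent gene, at 0.16, Pkdcc, a secreted kinase, at 0.17 and Mad2l2 at 0.18 (median 0.48). Prkag3 itself varied more (0.45 around its mean, against 0.28 for Prkab2 and 0.32 for Prkaa2). Of the genes ranked, none followed Prkag3 as closely as Jph1 followed Prkab2. The 3 genes named per member were picked for the smallest distances, so their place below the median is built in.

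The wider AMPK pathway was described by 8 lists holding 81 genes, of which 74 were tested. In limma 0 of the 74 were called in either direction, 8 lay at an unadjusted p under 0.05, and the groups did not overlap for 5. The share of all genes is 0.36% called, 13.1% at that p and 8.31% without overlap. Medians of the lists of LKB1 partners, other upstream kinases, folliculin and sestrins, and growth substrates lay within 0.06 of 0 and turned sign under at least 1 other scaling, and that of the metabolic substrates was -0.014 in the 5 libraries without Xist. With Xist as a covariate 2 of the 74 were called, Srebf1 higher and Eef2k lower, beside 2.01% of all genes.

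Among the proteins that work with LKB1 (its partners Strada, Stradb and the MO25 genes, Axin1, and the Lamtor scaffold of the lysosome), 10 of 10 were tested and 0 called, with a median of -0.03. The values with the smallest p were those of the pseudokinases Stradb, at -0.17 (adjusted p = 0.565 in limma), and Strada, at 0.18 (adjusted p = 0.601 in limma). The AMPK-related kinases, which LKB1 also activates, had 9 of 12 tested, 0 called and a median of 0.03. Nuak1 stood at 0.37 and Mark3 at 0.15 there. Among other upstream kinases and phosphatases that act on AMPK 6 of 8 were tested and 0 called, with a median of -0.06. Ppm1a, a metal-dependent phosphatase, stood at -0.25 and Ppp2r1a, the scaffold of protein phosphatase 2A, at -0.14. Folliculin, its partners and the sestrins had 5 of 6 tested, 0 called and a median of -0.02, with Sesn3 at 0.31 and Sesn1 at -0.17.

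Substrates of AMPK in metabolism, 16 of 16 tested and 0 called, had a median of 0.05 and the widest spread of the 8 lists, from -0.97 to 0.89. The lowest, named after its value was seen, was that of the glycolytic regulator Pfkfb3, at 23.7 ± 18.4 scaled FPKM in controls and 9.88 ± 4.24 in knockouts (SD, n = 4) with overlap. Srebf1, the transcription factor of lipid synthesis that AMPK restrains, stood at 6.98, 9.78, 6.44 and 10.4 FPKM in controls and at 25.4, 11.5, 15.9 and 18.5 FPKM in knockouts. Every knockout was above every control. Its difference was 0.89 (SE 0.23, adjusted p = 0.148 in limma), and with Xist as a covariate it rose by 1.0 (SE 0.19, adjusted p = 0.0468). Hdac4, a class IIa histone deacetylase, was also without overlap, from 3.46 ± 0.582 to 5.20 ± 1.02 scaled FPKM (SD, n = 4), with a difference of 0.47 (adjusted p = 0.188, and 0.0583 with the covariate).

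Substrates in growth, autophagy and mitochondrial fission, 11 of 11 tested and 0 called, had a median of -0.0013. Eef2k, the kinase that slows translation elongation, stood at 11.8, 17.1, 14.6 and 15.1 FPKM in controls and at 12.4, 9.42, 11.2 and 10.3 FPKM in knockouts. Control 1 lay within the knockout range and the other controls above it. The difference was -0.48 (adjusted p = 0.188 in limma), and with Xist as a covariate Eef2k fell by 0.39 (adjusted p = 0.0493). Mtfr1l, a mitochondrial fission regulator, went from 94.4 ± 8.81 to 76.0 ± 7.25 scaled FPKM (SD, n = 4), a difference of -0.31 (adjusted p = 0.222 in limma).

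Enzymes that set the balance of adenine nucleotides had 10 of 11 tested, 0 called and a median of -0.09, which shrank to -0.02 without scaling, -0.01 with quantile normalization and -0.03 with cyclic loess normalization. The adenylate kinase Ak1 stood at -0.23 and the AMP deaminase Ampd3 at 0.38 there. Ckm, muscle creatine kinase, was not tested because it lacked a valid estimate in some libraries. Genes known to rise when AMPK is activated in muscle had 9 of 9 tested and 0 called, and their median was -0.27, with 7 of 9 below 0, beside 50.5% of all genes. Slc2a4, the insulin- and contraction-responsive glucose transporter GLUT4, stood at 318, 405, 331 and 332 FPKM in controls and at 260, 307, 254 and 294 FPKM in knockouts, with no overlap. Its difference was -0.40 (SE 0.10, adjusted p = 0.154 in limma). Cpt1b, the fatty acid gate of muscle mitochondria, stood at -0.23 (adjusted p = 0.308 in limma). The median of this list was -0.18 without scaling, -0.21 with cyclic loess normalization and -0.14 in the 5 libraries without Xist.

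**Figure D5:**
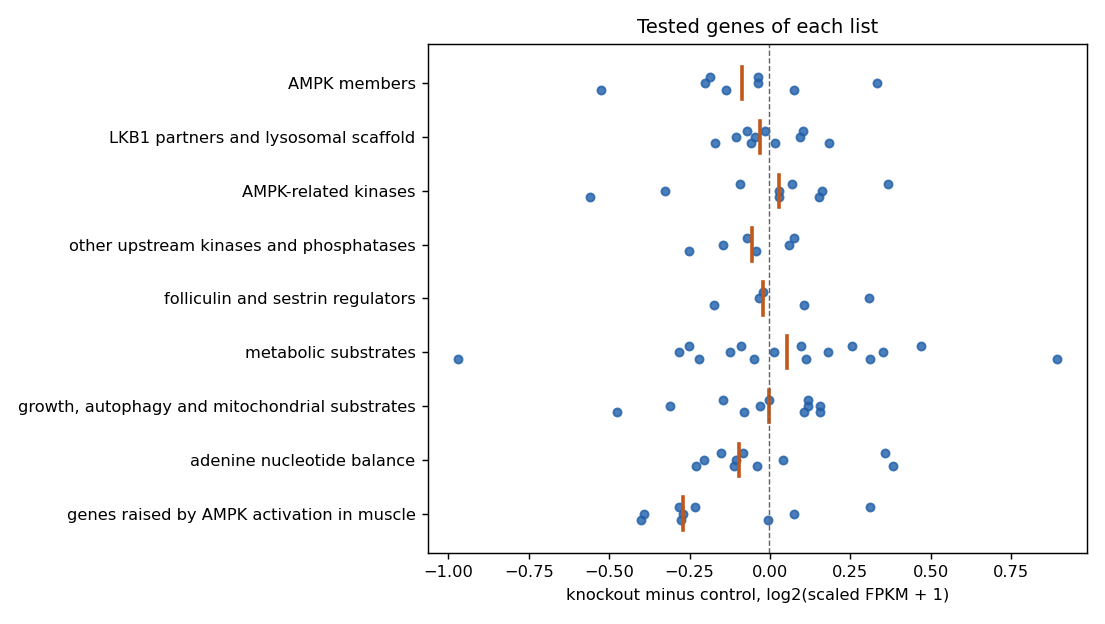
Difference between knockout and control on the log2(scaled FPKM + 1) scale (x axis) of each tested gene (points) in the list of the members and the 8 pathway lists, with the list median as an orange bar and the median of all genes as a dashed line. Medians lie between -0.27 and 0.05.

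Summed markers of other cell types overlapped between the genotypes in every list. Endothelial markers, 7 of 7 measured and none at 0, summed to between 278 and 325 scaled FPKM in controls and 235 and 323 in knockouts. Those of fibro-adipogenic cells, all 7 measured, summed to between 251 and 531 and between 210 and 377, and those of smooth muscle, all 5, to between 211 and 337 and between 203 and 242. Macrophage markers, all 6, summed to between 14.7 and 26.4 and between 16.2 and 28.3, and adipocyte markers, all 7, to between 891 and 1120 and between 663 and 1023. The adipocyte sum is nearly all Fabp4, with means of 986 ± 109 scaled FPKM in controls and 828 ± 153 in knockouts (SD, n = 4). It thus tells little of the other adipocyte markers, and only 3 of the 7 passed the filter for testing. Schwann cell and tendon markers, 4 and 3 in number, summed to between 79.2 and 124 and between 7.03 and 15.1 in controls, and to between 80.3 and 96.8 and between 11.3 and 34.7 in knockouts. No marker of these lists was at 0 in any library, and 0 of the tested markers were called in limma. All tested markers had values below 0 in the endothelial (7), fibro-adipogenic (7), smooth muscle (5), adipocyte (3) and Schwann cell (4) lists, and above 0 in the macrophage (5) and tendon (2) lists, beside 50.5% of all genes below 0. The macrophage median of 0.12 was -0.01 in the 5 libraries without Xist. Without scaling, the endothelial median of -0.18 was -0.10, the Schwann cell median of -0.12 was -0.03 and the fibro-adipogenic median of -0.16 was -0.08. Without knockout 2 and knockout 4 these 3 medians were -0.04, -0.04 and -0.49. The smooth muscle and adipocyte medians, -0.40 and -0.57, stayed at or below -0.33 and -0.42 in all alternatives computed for lists. The part of these cell types in the values of the AMPK genes was not tested.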

How the data were processed

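RNA of frozen tibialis anterior from 8 mice was isolated with Trizol and sequenced from TruSeq RNA v2 libraries, per the labels' protocols. The submitters' processing notes name STAR, Cufflinks and the build mm10 without versions, and no source used here names the annotation. The authors deposited Cufflinks FPKM, 1 table per library, with no read counts, so count models were not used. Cufflinks estimates how overlapping genes share reads. The interval columns equalled the value for at least 99.87% of genes and were set aside, as were 23 genes whose status was not OK throughout.

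Scaling used median-of-ratios factors from 0.904 to 1.07. On log2(scaled FPKM + 1), the 11096 genes that reached 1 scaled FPKM in 4 or more libraries were tested with limma 3.58.1 (R 4.3.3, eBayes with a trend on the mean), with Benjamini-Hochberg adjustment. Shares and Carm1 were tested by 2-sided exact permutation. The fit was tested on simulated data. Other steps used Python 3.11.15 (numpy 2.4.6; pandas 2.3.3; scipy 1.17.1; matplotlib 3.10.9). Alternatives kept these genes unless they changed the filter, except that trend removal tested only the 10701 with GC content and length. Positions, GC content and length came from GENCODE M21 (GRCm38, the assembly of mm10), the latter pair for 96.4% of tested genes.

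The members, lists, tests and alternatives were chosen with earlier results of these data known. Trend removal was added after the values were seen. Named genes were Carm1, all members and the 3 ranked genes nearest to each of Prkaa2, Prkab2 and Prkag3. Per list, up to 2 called genes in each direction were named, failing which the 2 of smallest p. Pfkfb3 is named outside this rule, after its value was seen. Markers were used as lists only, apart from some named to describe the libraries or the sums. These were Xist, Y-linked genes, myosin genes, the fast-fibre markers with valid estimates, Tnnt1 and Fabp4.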

Additional observations from a re-analysis of the deposited data

Results flagged for a closer look

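Among 26 sets of 4 values screened, the 9 genes and 4 shares in each genotype, 1 value stood far from the other 3 of its group, where chance gives about 1 in 20. Stk11 was at 60.6 scaled FPKM in knockout 3, and the other knockouts lay between 43.6 and 44.9. Its gap to the nearest of them was 0.923 of the group's range, above Dixon's critical value for groups of 4. Without knockout 3 the difference of Stk11 was -0.25 (adjusted p = 0.294 in limma), which did not pass.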

How the results depend on the processing

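Among member genes the call of Prkab2 was the 1 that changed side: the count of members called became 1 with Xist as a covariate and 1 with library weights, and it was 0 in the other 19 alternatives. The count of pathway genes called was 0 in 20 alternatives and 2 with Xist as a covariate. Differences of Prkaa2, Prkab2, Prkag1, Prkag2 and Stk11 kept their sign in all 21 alternatives. That of Prkaa1 turned to 0.035 without scaling, 0.053 with library weights, and 0.027, 0.037 and 0.025 without control 1, knockout 1 or knockout 3, with -0.11 to 0.037 over left-out libraries. That of Prkab1 turned to 0.042 without scaling, and that of Prkag3 to 0.058 without knockout 2 (-0.39 to 0.058 over left-out libraries), 0.030 with Xist as a covariate, 0.12 in the libraries without Xist and 0.30 without knockout 2 and knockout 4. The cause was not tested. Leaving out each library in turn gave Prkab2 differences between -0.58 and -0.47 with adjusted p between 0.0750 and 0.174.

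Leaving out a library brought the Carm1 difference of -0.94 to between -1.02 and -0.84 with an exact p of 0.0571, the smallest such a design gives. The difference was -0.80 (exact p = 0.2) in the libraries without Xist and -0.75 (exact p = 0.133) without knockout 2 and knockout 4. These p are also the smallest that those designs give, and the groups stayed without overlap. The Prkag1 share turned to -0.79 points without knockout 2, where the range over left-out libraries was -0.79 to 6.73, to -1.53 in the libraries without Xist and to -5.11 without knockout 2 and knockout 4, where the Prkag3 share turned to 2.08. The replicate number was fitted as a block although same-numbered libraries did not deviate together (correlations -0.43, -0.19, 0.35 and 0.19) and not every library correlated best with its own number. With the replicate block 0 of 11096 genes were called in limma, and Prkab2 kept -0.53 with an adjusted p of 0.211. Limma with this block on the log2 ratio of Prkab2 to Prkab1 gave -0.50 (adjusted p = 0.0279 over 4 shares). Permutation of the share had given an adjusted p of 0.114. The test changed along with the block, and the ratio was not fitted without the block, so the part of the block cannot be told. Without read counts, the counting error of low genes such as Camkk2 is not known.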
